A study of Mus musculus with 12 samples.

Results

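Pyrimidine and deoxynucleotide synthesis was represented by 9 genes chosen by symbol, of 57180 genes in the transcript map and 25446 that were tested. The de novo route to UMP and CTP was covered by *Cad*, *Dhodh*, *Umps* and *Ctps1*, and the supply of thymidylate and deoxynucleotides by *Tyms*, *Rrm1*, *Rrm2*, *Dut* and *Tk1*. Of these, 8 were found by symbol, and *Ctps1* was found under its synonym *Ctps* (ENSMUSG00000028633). All 9 passed the filter of at least 10 counts over all libraries.

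Pyrimidine nucleotides are built de novo on a ring made from carbamoyl phosphate and aspartate, oxidized in the mitochondrion and joined to phosphoribosyl pyrophosphate, which gives UMP and, further on, CTP. Ribonucleotide reductase turns ribonucleotides into deoxyribonucleotides, and thymidylate is made by methylation of dUMP or salvaged from thymidine. Pluripotent cells divide quickly and spend much of their cycle in S phase, in which the deoxynucleotide genes are known to be transcribed most.

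The RNA came from a single E14 mouse embryonic stem cell (ESC) clone with a doxycycline (DOX)-inducible CRISPR interference repressor, which lowers transcription where a guide RNA places it. The Neg line carried scramble guides, and the 3×KD line carried guides that place it at the promoters of *Pcx*, *Me1* and *Me2*, which encode pyruvate carboxylase and malic enzymes. Each line was sequenced as ESCs in N2B27 with 2i and LIF, and as epiblast-like cells after 2 days in FAX medium with Activin A, Fgf2 and XAV939 (EpiLCs day 2), in 3 libraries per group and 12 in all. Both lines carried the repressor, its inducer and the drug selection. DOX is given by the study's methods and not by the sample labels. No group of the 3×KD line is labeled as uninduced, so the knockdown and other differences between the lines cannot be told apart. An effect of 3×KD below means a difference between the lines. The titles of the samples gave the groups, whereas the cell type field gave ESCs to all Neg and EpiLCs to all 3×KD libraries. The study's methods give biological triplicates or more for every experiment unless its legend says otherwise. The labels do not say that libraries of a group came from separate cultures, so p-values measure the spread between these libraries.

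Libraries held between 11221023 and 19652197 estimated counts. As a check of the labels, 3×KD libraries held less of each targeted gene, with log2 fold changes of -1.14 for *Pcx*, -0.89 for *Me1* and -0.95 for *Me2* in ESCs and of -1.05, -1.05 and -0.98 in EpiLCs (edgeR, adjusted p between 1.22e-10 and 2.58e-09 for all). The summed level of 9 naive markers was between 5111 and 5271 CPM (counts scaled to library size) in ESCs of the Neg line and 3992 to 4070 CPM in those of 3×KD, against 308.4 to 322.4 and 455.5 to 470.2 CPM in EpiLCs. For 8 formative and primed markers the sums were 268.9 to 282.4 and 301.8 to 309.9 CPM in ESCs and 3091 to 3463 and 1772 to 1837 CPM in EpiLCs, again Neg before 3×KD, so that the labeled states were borne out while the markers differed between the lines. None of the 16 markers of other cell types was at 0 in every library of a group, and their sum ranged from 209.3 CPM in a Neg ESC library to 387.7 CPM in a 3×KD EpiLC library. The higher sum in 3×KD EpiLCs lay mainly in the closely related *Zscan4c* (mean 63.5 CPM in Neg and 143 CPM in 3×KD EpiLCs) and *Zscan4d* (71.6 and 144 CPM), markers of totipotent-like cells, whereas the neural marker *Sox1* (65.2 and 21.6 CPM) and the endoderm marker *Gata6* (9.53 and 4.68 CPM) were lower there. Another endoderm marker, *Gata4*, stood at 8.02 CPM in Neg and 8.56 CPM in 3×KD EpiLCs. Of the 16 markers, 3 were higher and 3 lower in 3×KD EpiLCs at an adjusted p under 0.01 (edgeR), beside 14.3% and 15.6% of all genes. The part of these markers in the results was not tested.

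Sequence upstream of the start site is shown for the members called between 3×KD and Neg (*Cad*, *Tk1*) and for the subunits of ribonucleotide reductase (*Rrm1*, *Rrm2*). The windows hold the 250 bases before the RefSeq start (build GRCm38.p6, which differs from the GRCm39 of the expression data) and are read 5′ to 3′ on the strand of the gene, namely chr5:31054530-31054779 (+) for *Cad*, chr11:117826015-117826264 (-) for *Tk1*, chr7:102441445-102441694 (+) for *Rrm1* and chr12:24708004-24708253 (+) for *Rrm2*. Capitals mark matches to the motifs searched.
Cad: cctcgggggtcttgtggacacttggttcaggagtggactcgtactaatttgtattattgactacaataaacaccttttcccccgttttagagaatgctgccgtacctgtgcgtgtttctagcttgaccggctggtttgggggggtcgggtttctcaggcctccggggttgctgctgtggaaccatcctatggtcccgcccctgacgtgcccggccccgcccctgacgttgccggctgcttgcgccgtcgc
Tk1: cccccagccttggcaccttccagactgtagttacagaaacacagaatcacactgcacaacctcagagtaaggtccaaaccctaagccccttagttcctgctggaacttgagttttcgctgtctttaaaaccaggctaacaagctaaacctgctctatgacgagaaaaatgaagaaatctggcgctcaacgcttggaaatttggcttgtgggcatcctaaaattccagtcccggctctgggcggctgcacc
Rrm1: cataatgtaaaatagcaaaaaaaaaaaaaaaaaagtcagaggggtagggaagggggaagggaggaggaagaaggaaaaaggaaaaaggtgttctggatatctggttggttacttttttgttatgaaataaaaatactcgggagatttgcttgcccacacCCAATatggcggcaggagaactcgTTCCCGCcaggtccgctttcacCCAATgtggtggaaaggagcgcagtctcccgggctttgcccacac
Rrm2: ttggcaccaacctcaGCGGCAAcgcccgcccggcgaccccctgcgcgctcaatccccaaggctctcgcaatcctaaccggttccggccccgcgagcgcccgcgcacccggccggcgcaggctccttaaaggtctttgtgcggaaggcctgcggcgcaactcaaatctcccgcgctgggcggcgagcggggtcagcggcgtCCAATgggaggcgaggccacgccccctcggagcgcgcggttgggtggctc

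Windows were held for 8 of the 9 members (not for *Dhodh*) and were searched on both strands for E2F letters (TTCCCGC or TTCGCGC or TTGCCGC or TTGGCGC), the E-box (CACGTG, the same on both strands), the CCAAT box (CCAAT) and the cell cycle homology region (TTTGAA). No matches of different motifs overlapped. E2F letters stood in 3 members, *Rrm1* (67 to 61 bases before the start), *Rrm2* (235 to 229 bases before, reverse strand) and the second of the windows of *Ctps1* (234 to 228 bases before, reverse strand), against 7.9% of 32851 windows of the same length. CCAAT stood in *Rrm1* at 91 to 87 and at 45 to 41 bases and in *Rrm2* at 50 to 46 bases before the start (33.8% of all windows). The E-box was held by *Tyms* alone among these members, 61 to 56 bases before the start (6.0% of windows), and TTTGAA by *Umps* alone, 95 to 90 bases before the start (16.0%). The windows of *Cad*, *Dut* and *Tk1* held none of these letters. A match is a string of letters here and not a measured binding site.

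Compared per length, in the TPM that the authors' quantifier gave, the members ranged between 12.4 and 113 TPM in their group means. In Neg ESCs the order was *Dut* (73.9 ± 9.46 TPM, SD, n = 3), *Rrm2* (69.6 ± 13.6), *Tyms* (54.7 ± 11.7), *Cad* (48.4 ± 8.50), *Umps* (41.6 ± 7.20), *Rrm1* (40.5 ± 11.4), *Ctps1* (32.9 ± 6.56), *Tk1* (17.4 ± 3.31) and *Dhodh* (13.5 ± 2.08). Steps between neighbors in this order exceeded the larger of their SDs only from *Rrm2* to *Tyms*, from *Ctps1* to *Tk1* and from *Tk1* to *Dhodh*. The leading gene by mean was *Rrm2* in 3×KD ESCs (87.3 ± 9.67 TPM), where *Cad* (78.5 ± 11.3 TPM) was within the larger SD of it. It was *Cad* in both EpiLC groups, with 108 ± 8.61 TPM in Neg and 113 ± 15.8 TPM in 3×KD. *Dhodh* was the lowest in both ESC groups and *Tk1* the lowest in both EpiLC groups, at 12.4 ± 0.643 TPM in Neg and 21.2 ± 2.42 TPM in 3×KD. In 3×KD EpiLCs *Dhodh* (25.1 ± 5.82 TPM) was within the larger SD of *Tk1*. Values given in CPM are TMM-normalized throughout, and those below compare a gene with itself across libraries.

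**Figure D1:**
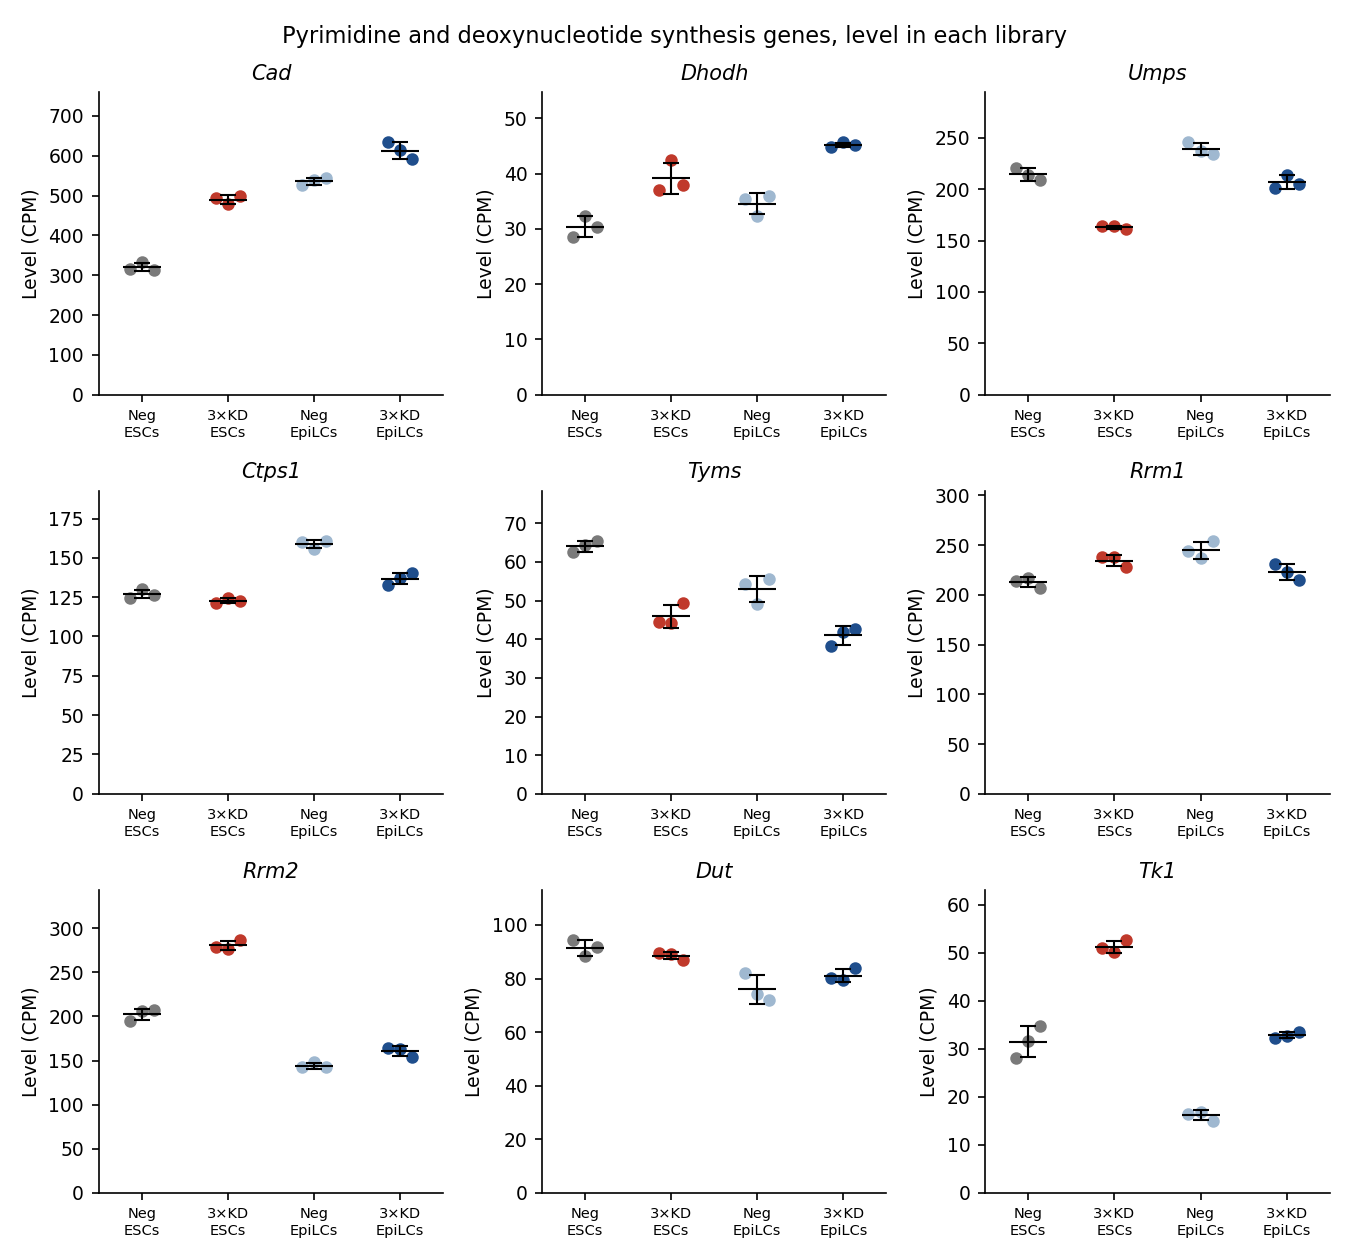
Level of each gene in CPM (y axes, from 0, separate for each gene) in the 3 libraries of each group (points, replicates 1 to 3 from left to right), with the mean and SD in black. *Tk1* and *Rrm2* were higher in 3×KD and lower in EpiLCs, *Cad* was higher in both, and *Umps* and *Tyms* were lower in 3×KD.

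The first question was how these genes differ between 3×KD and Neg cells of the same state. A gene was said to have risen or fallen at an adjusted p under 0.01 (edgeR's quasi-likelihood test, Benjamini-Hochberg over all genes tested), and was called where the absolute log2 fold change was also above 0.58. In ESCs 2 of the 9 members were called, *Cad* and *Tk1*, both higher in 3×KD, beside 15.3% of all genes tested and 8.5% called higher. In EpiLCs only *Tk1* was called, again higher, beside 13.2% of all genes and 7.88% called higher. By the adjusted p alone, 7 members changed in ESCs (31.6% of all genes), 5 of them upward (15.6%) and 2 downward (16%), and 8 changed in EpiLCs (29.9%), 4 upward (14.3%) and 4 downward (15.6%). The members are well expressed, and of the 15032 genes averaging 1 CPM or more the adjusted p alone was passed by 7708 (51.3%) in ESCs and by 7375 (49.1%) in EpiLCs. The libraries of the groups did not overlap for 7 members in ESCs (49% of all genes) and for 8 in EpiLCs (47.2%). The median log2 fold change of the members was 0.14 in ESCs and 0.093 in EpiLCs, beside 0.026 and 0.032 over all genes tested. Members that passed lay on both sides of 0 in each state.

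On the de novo route, *Cad* and *Dhodh* rose in 3×KD in both states while *Umps* fell in both. *Cad* (ENSMUSG00000013629, chr5:31212111-31236418, + strand, GRCm39) encodes the trifunctional enzyme that makes carbamoyl phosphate, condenses it with aspartate and closes the ring. Its level was 315, 332 and 313 CPM in Neg ESCs and 493, 478 and 498 CPM in 3×KD ESCs. In EpiLCs it was 525, 538 and 543 CPM in Neg and 633, 615 and 591 CPM in 3×KD. The groups did not overlap in either state, and the 3×KD ESC libraries lay between those of Neg ESCs and Neg EpiLCs. The rise was 1.53-fold in ESCs (log2 fold change 0.61 ± 0.036, SE, adjusted p = 7.9e-10) and 1.15-fold in EpiLCs (0.20 ± 0.035, adjusted p = 0.000258).

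*Dhodh* (ENSMUSG00000031730, chr8:110317492-110335347, - strand), which oxidizes dihydroorotate to orotate at the inner mitochondrial membrane and passes the electrons to ubiquinone, rose as well. It stood at 28.5, 32.4 and 30.3 CPM in Neg ESCs against 37.1, 42.4 and 37.9 CPM in 3×KD ESCs. In EpiLCs it stood at 35.4, 32.4 and 35.9 CPM in Neg against 44.9, 45.7 and 45.1 CPM in 3×KD. Every 3×KD library was above every Neg library of its state, by 1.28-fold in ESCs (log2 0.36 ± 0.064, adjusted p = 0.000193) and 1.31-fold in EpiLCs (0.39 ± 0.062, adjusted p = 8.68e-05).

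*Umps* (ENSMUSG00000022814, chr16:33774077-33787429, - strand), the bifunctional enzyme that turns orotate into UMP, went the other way. Neg ESCs held 221, 213 and 209 CPM and 3×KD ESCs 164, 164 and 161 CPM. Neg EpiLCs held 245, 237 and 234 CPM and 3×KD EpiLCs 201, 214 and 205 CPM. All 3×KD libraries were below all Neg libraries of the same state, with log2 fold changes of -0.39 ± 0.035 in ESCs (adjusted p = 9.69e-08) and -0.21 ± 0.034 in EpiLCs (adjusted p = 9.9e-05).

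*Ctps1* (chr4:120395395-120471131, - strand), which aminates UTP to CTP with nitrogen from glutamine, held 125, 129.9 and 127 CPM in Neg ESCs and 121, 125 and 122 CPM in 3×KD ESCs, so that the groups overlapped. The difference there was -0.049 ± 0.033 (log2, adjusted p = 0.28), with a 95% interval from -0.12 to 0.022. In EpiLCs, by contrast, Neg libraries held 160.01, 156 and 160.4 CPM and 3×KD libraries 133, 137 and 141 CPM without overlap, a fall of log2 -0.21 ± 0.033 (adjusted p = 5.07e-05).

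Among the deoxynucleotide genes, *Tk1* had the widest changes of the set. *Tk1* (ENSMUSG00000025574, chr11:117702770-117717042, - strand) encodes the cytosolic thymidine kinase of the salvage route, whose activity is known to peak in S phase. It stood at 28.1, 31.7 and 34.7 CPM in Neg ESCs and at 51.0, 50.1 and 52.5 CPM in 3×KD ESCs. In EpiLCs it stood at 16.4, 16.9 and 14.9 CPM in Neg and at 32.3, 32.7 and 33.4 CPM in 3×KD. No 3×KD library overlapped a Neg library of its state, and the libraries of 3×KD EpiLCs lay within the range of Neg ESCs. The rise was 1.62-fold in ESCs (log2 0.69 ± 0.067, adjusted p = 2.84e-07) and 2.04-fold in EpiLCs (1.03 ± 0.072, adjusted p = 8.3e-09). These values are for the sum over all transcripts of the gene. The coding transcript held 86.7% of the gene's TPM in Neg and 68.7% in 3×KD ESCs, and 63.4% and 69.8% in EpiLCs. Its change alone was not tested.

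*Tk1* overlaps *Syngr2* and *Afmid* on the opposite strand, and these genes moved in the same directions as *Tk1*. *Syngr2* (mean 35.4 CPM) was higher in 3×KD by log2 0.35 in ESCs (adjusted p = 0.000115) and 0.59 in EpiLCs (1.11e-06), and *Afmid* (mean 2.84 CPM) by 0.72 (0.00332) and 0.89 (0.0025). *Gm20708*, which also overlaps *Tk1* on that strand, averaged 0.223 CPM, stood at log2 -2.08 in ESCs and did not pass in either state. The library kit keeps strand, but the strand setting of the quantification is not given in the sources used here, and the part of reads from the opposite strand was not tested. *Umps*, *Ctps1*, *Rrm1* and *Rrm2* also overlap annotated genes, none of them protein-coding, and on the same strand only for *Rrm1*.

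*Tyms* (ENSMUSG00000025747, chr5:30263198-30278633, - strand), the thymidylate synthase that methylates dUMP, fell in 3×KD in both states. Its levels were 62.5, 64.4 and 65.3 CPM in Neg ESCs and 44.4, 44.1 and 49.3 CPM in 3×KD ESCs. In EpiLCs they were 54.3, 49.1 and 55.7 CPM in Neg and 38.2, 41.9 and 42.8 CPM in 3×KD. The groups did not overlap, and the log2 fold changes were -0.48 ± 0.06 in ESCs (adjusted p = 4.85e-06) and -0.37 ± 0.06 in EpiLCs (adjusted p = 9.41e-05). RNA of *Tyms* was thus lower and that of *Tk1* higher in 3×KD in either state. A processed pseudogene, *Tyms-ps*, is annotated, and how reads were shared with it was not tested.

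The subunits of ribonucleotide reductase differed from each other. *Rrm2* (ENSMUSG00000020649, chr12:24757811-24764145, + strand), the small subunit whose amount is known to limit the enzyme outside S phase, held 195, 206 and 207 CPM in Neg ESCs and 279, 277 and 286 CPM in 3×KD ESCs. It held 142, 148 and 142 CPM in Neg EpiLCs and 165, 164 and 154 CPM in 3×KD EpiLCs. *Rrm2* rose in both states, with the groups apart, by log2 0.47 ± 0.035 in ESCs (adjusted p = 1.52e-08) and 0.16 ± 0.036 in EpiLCs (adjusted p = 0.0019). The smaller change in EpiLCs no longer passed without replicate 3 of Neg EpiLCs (0.15) or without replicate 1 (0.14) or 2 (0.15) of 3×KD EpiLCs, nor with length offsets (0.11), and its adjusted p ranged from 3.7e-05 to 0.1 over 16 alternatives.

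*Rrm1* (ENSMUSG00000030978, chr7:102090890-102119709, + strand), the large catalytic subunit, had small changes of opposite sign in ESCs and EpiLCs. Neg ESCs held 214, 217 and 207 CPM and 3×KD ESCs 238, 238 and 228 CPM. Neg EpiLCs held 244, 237 and 254 CPM and 3×KD EpiLCs 231, 223 and 215 CPM. All 3×KD libraries were above Neg in ESCs and below Neg in EpiLCs, by log2 0.14 ± 0.036 (adjusted p = 0.00474) and -0.14 ± 0.036 (adjusted p = 0.00666). Neither change was firm. In ESCs it no longer passed without replicate 1 (0.15) or 3 (0.12) of Neg or replicate 2 (0.13) of 3×KD, and in EpiLCs without replicate 1 (-0.13) or 3 (-0.11) of Neg or replicate 2 (-0.14) or 3 (-0.11) of 3×KD. Over 16 alternatives the adjusted p lay between 0.000807 and 0.261 in ESCs. In EpiLCs it lay between 0.00197 and 0.171, and the value was -0.076 with library size alone and -0.27 with offsets for the average transcript length, while the sign held in all of them in both states.

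*Dut* (ENSMUSG00000027203, chr2:125089110-125100966, + strand), the dUTPase that yields dUMP and keeps uracil out of DNA, did not pass the test in either state. It held 94.2, 88.3 and 91.9 CPM in Neg ESCs and 89.6, 89.0 and 87.1 CPM in 3×KD ESCs, with a log2 difference of -0.046 ± 0.047 (95% interval -0.15 to 0.054, adjusted p = 0.492). In EpiLCs it held 82.2, 74.2 and 71.8 CPM in Neg and 80.0, 79.4 and 83.9 CPM in 3×KD, with a difference of 0.093 ± 0.048 (95% interval -0.0089 to 0.19, adjusted p = 0.149). The groups overlapped in both states. The EpiLC difference was 0.052 without replicate 3 and 0.16 without replicate 1 of Neg EpiLCs, and 0.20 with length offsets, and did not pass in any of these.

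**Figure D2:**
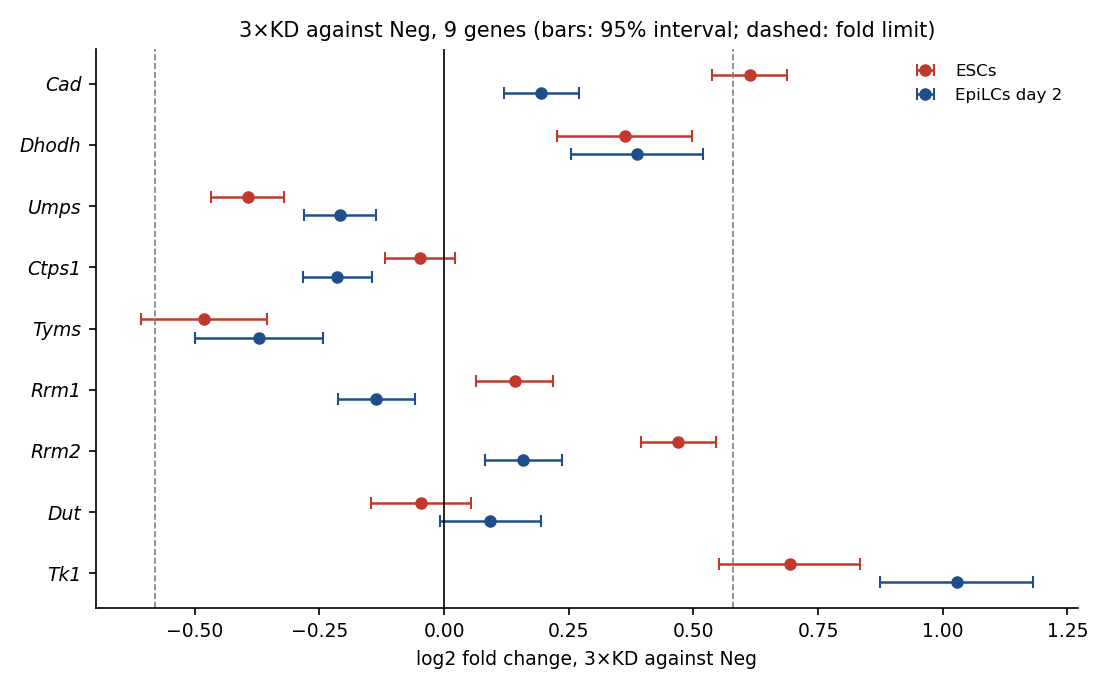
log2 fold change of 3×KD against Neg (x axis) for the 9 genes in ESCs (red) and EpiLCs day 2 (blue), with 95% intervals and dashed lines at the fold limit of 0.58. *Tk1* lay beyond the limit in both states and *Cad* in ESCs, while *Rrm1* lay on opposite sides of 0.

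Whether the effect of 3×KD differed between the states was tested as the interaction of line and state, for which no fold limit was set. It passed for 3 of the 9 members, all with a lower value in EpiLCs, beside 10% of all genes and 5.27% lower. Of the genes averaging 1 CPM or more, 16.8% passed. *Cad* differed most, by log2 -0.42 ± 0.05 (adjusted p = 1.84e-05), followed by *Rrm2* at -0.31 ± 0.05 (0.000347) and *Rrm1* at -0.28 ± 0.051 (0.00114). The call of *Rrm1* was lost with library size alone (-0.20) and with length offsets (-0.42), and that of *Rrm2* with library size alone (-0.24), and over 21 alternatives the adjusted p reached 0.0791 and 0.0109. *Umps* (0.18 ± 0.048, adjusted p = 0.0143), *Ctps1* (-0.17 ± 0.047, 0.0219) and *Tk1* (0.33 ± 0.098, 0.0279) did not pass, but passed in 5, 3 and 3 of 21 alternatives. *Dut* (0.14 ± 0.067, adjusted p = 0.199), *Tyms* (0.11 ± 0.085, 0.462) and *Dhodh* (0.025 ± 0.089, 0.911) did not pass. The 95% interval for *Dhodh* ran from -0.16 to 0.21.

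*Umps* lies on chromosome 16, whose genes stood apart in 3×KD. The median log2 fold change of the 454 genes of this chromosome averaging 1 CPM or more was 0.298 in ESCs and 0.3 in EpiLCs, the highest of 20 chromosomes, whereas the chromosomes of the other members had medians between -0.052 and 0.023. *Umps* was lower against this shift, 0.692 below the median of its chromosome in ESCs and 0.509 below in EpiLCs, and only 42 and 45 of those genes had a lower value. The part of the chromosome in the *Umps* result was not tested. *Cad* and *Tyms* share chromosome 5, where *Cad* was above 820 of 951 genes and *Tyms* above 157 of 951 in ESCs.

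**Figure D3:**
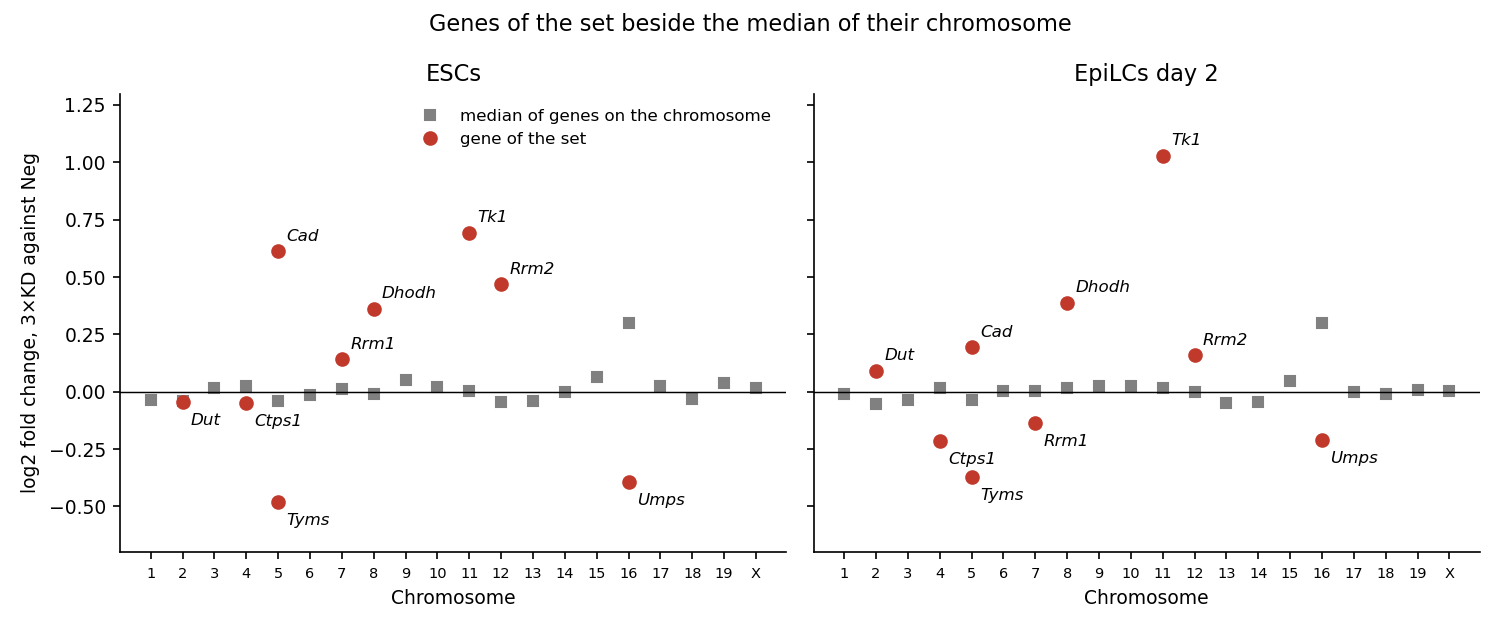
log2 fold change of 3×KD against Neg (y axis) of each gene (red points) and the median of genes with at least 1 CPM on each chromosome (gray squares, x axis), in ESCs and EpiLCs day 2. The median of chromosome 16 stood at 0.298 and 0.3, and *Umps* lay below 0 in both states.

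The second question was how the genes change as ESCs become EpiLCs in each line. The directions in Neg cells went partly with role. Of the 4 de novo genes 3 rose (*Cad*, *Umps* and *Ctps1*), and *Dhodh* did not pass. Of the 5 deoxynucleotide genes 4 fell (*Tyms*, *Rrm2*, *Dut* and *Tk1*), and *Rrm1* rose. Thus 8 members passed the adjusted p in Neg (35.7% of all genes), 4 upward (17.5%) and 4 downward (18.2%). Of these, 2 were called (20.8%), *Cad* higher (9.78% called higher) and *Tk1* lower (11% called lower). In 3×KD cells 5 passed (33.8%), with *Cad*, *Umps* and *Ctps1* again higher (15.9%) and *Rrm2* and *Tk1* lower (17.9%), and the latter pair was called (18.7%, and 9.32% called lower). Of the 15032 genes averaging 1 CPM or more, the adjusted p alone was passed by 55.9% in Neg and by 53.4% in 3×KD. Among these genes 4051 rose and 4346 fell in Neg, and 3702 rose and 4327 fell in 3×KD. Libraries of ESCs and EpiLCs did not overlap for 8 members in each line, beside 51.7% of all genes in either. The members' median was 0.16 in Neg and -0.074 in 3×KD, beside 0.011 in both over all genes. The comparisons within the lines share libraries with those between the lines.

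From the values given above, *Cad* rose from 320.1 ± 10.5 to 536 ± 9.33 CPM (mean ± SD, n = 3) in Neg, 1.67-fold (log2 0.74 ± 0.036, adjusted p = 2.35e-11), and from 489.5 ± 10.7 to 613 ± 21.3 CPM in 3×KD, 1.25-fold (0.32 ± 0.035, adjusted p = 8.98e-07). *Ctps1* rose by log2 0.32 ± 0.033 in Neg (adjusted p = 3.84e-07) and 0.16 ± 0.033 in 3×KD (0.000924). For *Umps* the order was reversed, with 0.16 ± 0.034 in Neg (adjusted p = 0.00115) and 0.34 ± 0.034 in 3×KD (3.92e-07), and the Neg value ranged from 0.12 with library size alone, where it missed the threshold, to 0.24 with upper-quartile factors. *Dhodh* did not pass in either line, at 0.18 ± 0.064 in Neg (adjusted p = 0.0297) and 0.21 ± 0.062 in 3×KD (0.0117). It passed in Neg without replicate 2 of EpiLCs (0.26), with upper-quartile factors (0.26) and with length offsets (0.33), and in 3×KD without replicate 2 of ESCs (0.27) and in 8 of 16 alternatives in all.

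*Tk1* fell 1.97-fold in Neg, from 31.5 ± 3.29 to 16.1 ± 1.04 CPM (log2 -0.98 ± 0.073, adjusted p = 7.53e-09), and 1.56-fold in 3×KD, from 51.2 ± 1.25 to 32.8 ± 0.572 CPM (-0.64 ± 0.066, adjusted p = 5e-07). *Syngr2* and *Afmid* on the opposite strand fell as well, by log2 -0.89 and -1.29 in Neg and -0.65 and -1.11 in 3×KD. *Rrm2* fell from 203 ± 6.41 to 144 ± 3.26 CPM in Neg (log2 -0.49 ± 0.036, adjusted p = 5.46e-09) and from 281 ± 4.85 to 161 ± 5.69 CPM in 3×KD (-0.80 ± 0.035, adjusted p = 1.17e-11). With upper-quartile factors the fall of *Tk1* in 3×KD was -0.57, just inside the fold limit.

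The remaining deoxynucleotide genes changed less. *Tyms* differed by log2 -0.27 ± 0.059 in Neg (adjusted p = 0.00101) and by -0.16 ± 0.061 in 3×KD (0.0388). Its fall in Neg no longer passed without replicate 2 of EpiLCs (-0.19), with upper-quartile factors (-0.19) or with length offsets (-0.25). *Dut* fell by -0.27 ± 0.048 in Neg (adjusted p = 0.000196) and differed by -0.13 ± 0.047 in 3×KD (0.0409). *Rrm1* alone of the deoxynucleotide genes rose in Neg, by 0.20 ± 0.036 (adjusted p = 0.000189, and 0.41 with length offsets), and differed by -0.074 ± 0.036 in 3×KD (0.122). Per length, *Rrm1* stood at 40.5 ± 11.4 TPM beside 69.6 ± 13.6 TPM for *Rrm2* in Neg ESCs, and at 61.7 ± 8.01 TPM beside 58.7 ± 3.19 TPM in Neg EpiLCs, where the subunits no longer differed by more than their SD.

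**Figure D4:**
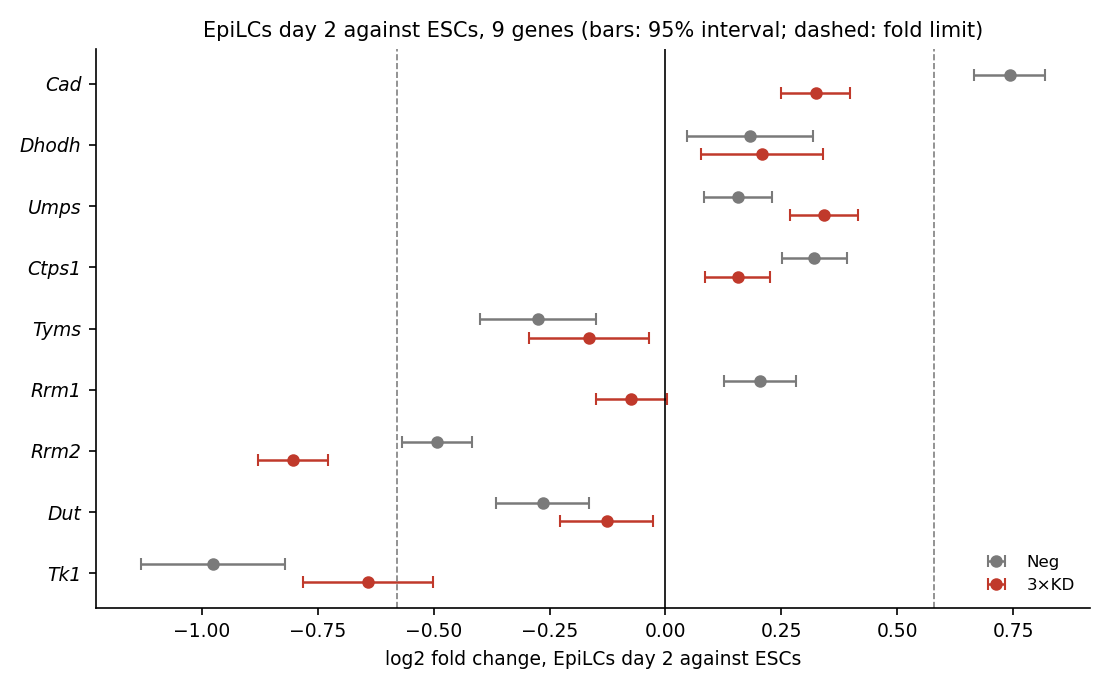
log2 fold change of EpiLCs day 2 against ESCs (x axis) for the 9 genes in Neg (gray) and 3×KD (red), with 95% intervals and dashed lines at the fold limit of 0.58. *Cad*, *Dhodh*, *Umps* and *Ctps1* lay above 0 in both lines and *Tyms*, *Rrm2*, *Dut* and *Tk1* below, with *Rrm1* at 0.20 in Neg and -0.074 in 3×KD.

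Transcript estimates show what the gene sums rest on. *Ctps1*, *Umps*, *Rrm2* and *Dut* rested mainly on 1 coding transcript each, with 98.6%, 97.5%, 93.6% and 92.8% of the gene's TPM on average over the 12 libraries. For *Cad*, the main coding transcript ENSMUST00000013773 held 53.0% and a transcript without a defined coding sequence, ENSMUST00000202227, held 37.8%. For *Tyms*, 58.7% went to ENSMUST00000146520, annotated as a target of nonsense-mediated decay. The coding transcripts ENSMUST00000196872, ENSMUST00000026846 and ENSMUST00000198095 held 11.85%, 9.89% and 1.82%. The main transcript of *Dhodh*, ENSMUST00000123605, held 62.6%. For *Tk1*, the coding transcript ENSMUST00000026661 held 86.7% ± 3.18 (SD, n = 3) in Neg and 68.7% ± 5.23 in 3×KD among ESCs, and 63.4% ± 5.57 and 69.8% ± 4.65 among EpiLCs. A transcript of *Tk1* with a retained intron, ENSMUST00000141939, was listed at 0 in all Neg ESC libraries and held between 7.84% and 27.9% in each library of the other groups. For *Rrm1*, ENSMUST00000211720, also annotated for decay, was listed at 0 in some ESC libraries. It held 17.5% in replicate 2 of Neg ESCs and 15.3% in replicate 2 of 3×KD ESCs. In EpiLCs it held 17.3% ± 4.57 in Neg and 10.7% ± 1.23 in 3×KD. These shares are estimates that split reads between near-identical transcripts, and they moved between libraries of the same group, so they were not tested.

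The rest of pyrimidine and deoxynucleotide metabolism was followed in lists of related genes. Among 18 genes of pyrimidine salvage and nucleotide kinases, 4 rose and 2 fell in 3×KD ESCs, and 3 rose and 3 fell in 3×KD EpiLCs. These shares are close to those of all genes tested, 31.6% in ESCs and 29.9% in EpiLCs, against which the counts of the lists below are also to be read, with the higher shares of well-expressed genes given above. *Uckl1*, related to the uridine-cytidine kinases, rose in both (log2 0.76 and 0.82), as did *Nme4*, a mitochondrial nucleoside diphosphate kinase (0.56 and 0.60), and *Ctps2*, the second CTP synthase, rose in ESCs (0.58). *Dtymk*, which phosphorylates thymidylate after both *Tyms* and *Tk1*, fell in both states (-0.22 and -0.46). *Tk2*, the mitochondrial thymidine kinase, fell in ESCs (-0.40), and *Nme1* (-0.32) and the uridine-cytidine kinase *Uck2* (-0.14) fell in EpiLCs, where *Cda*, the cytidine deaminase, rose by 1.80 from a mean of 0.397 CPM over all libraries. The list's median was -0.0063 in ESCs and -0.13 in EpiLCs.

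Among 15 genes that control or remove deoxynucleotides, 3 rose and 2 fell in 3×KD ESCs, and 2 rose and 5 fell in EpiLCs. *Rrm2b*, the p53-inducible small subunit that can replace *Rrm2*, rose in both states (log2 0.63 and 0.40). *Shmt1*, the cytosolic serine hydroxymethyltransferase that feeds folate carbon to *Tyms*, fell in both (-0.61 and -0.27). The uridine phosphorylase *Upp1* rose in ESCs and fell in EpiLCs (0.50 and -0.18), as did the deoxynucleotide hydrolase *Samhd1* (0.17 and -0.19), while in ESCs the thymidine phosphorylase *Tymp* fell (-0.59). In EpiLCs *Nt5m*, a mitochondrial deoxynucleotidase, fell (-1.15), and *Dpyd*, which degrades pyrimidine bases, rose (1.64) from a mean of 0.538 CPM. The list's median was -0.074 in ESCs and -0.14 in EpiLCs.

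Among 13 genes that supply aspartate, phosphoribosyl pyrophosphate and glutamine, 5 rose and 3 fell in 3×KD ESCs, and 4 rose and 2 fell in EpiLCs (medians 0.064 and -0.036). *Got1* and *Got2*, the cytosolic and mitochondrial aspartate aminotransferases, rose in both states, *Got1* by log2 0.99 and 0.60 and *Got2* by 0.41 and 0.22. *Prps2*, a phosphoribosyl pyrophosphate synthetase, rose in ESCs (0.40), and the glutamine synthetase *Glul* (-0.34) and *Prpsap1* (-0.19) fell. *Asns*, which spends aspartate and glutamine on asparagine, fell in ESCs (-0.25) and rose in EpiLCs (1.14), a difference of 1.39 between the states (adjusted p = 1.2e-11). In EpiLCs the aspartate and glutamate carrier *Slc1a3* (-0.46) and *Prpsap2* (-0.23) fell.

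Nucleoside and nucleotide carriers were 9 genes, of which 4 rose and 1 fell in 3×KD ESCs and 4 rose in EpiLCs, where the other 5 did not pass (medians 0.15 and 0.31). The equilibrative carriers *Slc29a1* (log2 0.63 and 1.05) and *Slc29a4* (0.69 and 0.93) rose in both states, and so did the concentrative carrier *Slc28a1* (0.89 and 0.43). *Slc29a3*, an equilibrative carrier of lysosomes, fell in ESCs (-0.18) and rose in EpiLCs (0.50).

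Genes of S phase and mitosis were counted beside these, since the deoxynucleotide genes follow the cell cycle. Of 40 S phase genes other than the members, 13 rose and 10 fell in 3×KD ESCs, and 7 rose and 14 fell in EpiLCs (medians 0.047 and -0.062). *Mcm4* of the replicative helicase (log2 0.60 and 0.44) and *Gins2* (0.55 and 0.44) rose in both states, as did *Uhrf1*, the maintenance methylation cofactor (0.62 and 0.22), and *Chaf1b* of the chromatin assembly factor (0.55 and 0.64). The exonuclease *Exo1* (-0.59 and -0.51), the deubiquitinase *Usp1* (-0.57 and -0.20), the flap endonuclease *Fen1* (-0.43 and -0.41), the chromatin remodeler *Hells* (-0.26 and -0.51) and *Casp8ap2* (-0.30 and -0.42) fell in both. Of 14 mitosis genes 9 rose in ESCs and 5 in EpiLCs, and the others did not pass (medians 0.21 and 0.064), beside 15.6% and 14.3% of all genes that rose. *Mki67* (0.49), *Top2a* (0.49) and *Bub1* (0.41) rose most in ESCs, and *Aurkb* (0.41), *Ccnb2* (0.39) and *Bub1* (0.28) in EpiLCs, all under the fold limit of a call. In bulk RNA, fewer cells in a phase and less RNA per cell cannot be told apart, and the part of the cell cycle in the members' values was not tested.

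Of 13 E2F, RB and MYC factors, which are known to act on genes of this set, 1 rose and 5 fell in 3×KD ESCs, and 1 rose and 7 fell in EpiLCs (medians -0.089 and -0.28). *E2f1* was the riser in both states (log2 0.19 and 0.18). *Mycn* fell in both (-1.05 and -1.81), as did *E2f3* (-0.77 and -0.66), while *Myc* fell in ESCs (-2.10) and *E2f6* in EpiLCs (-0.69). *Myc* differed by 0.28 in EpiLCs (adjusted p = 0.0199).

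**Figure D5:**
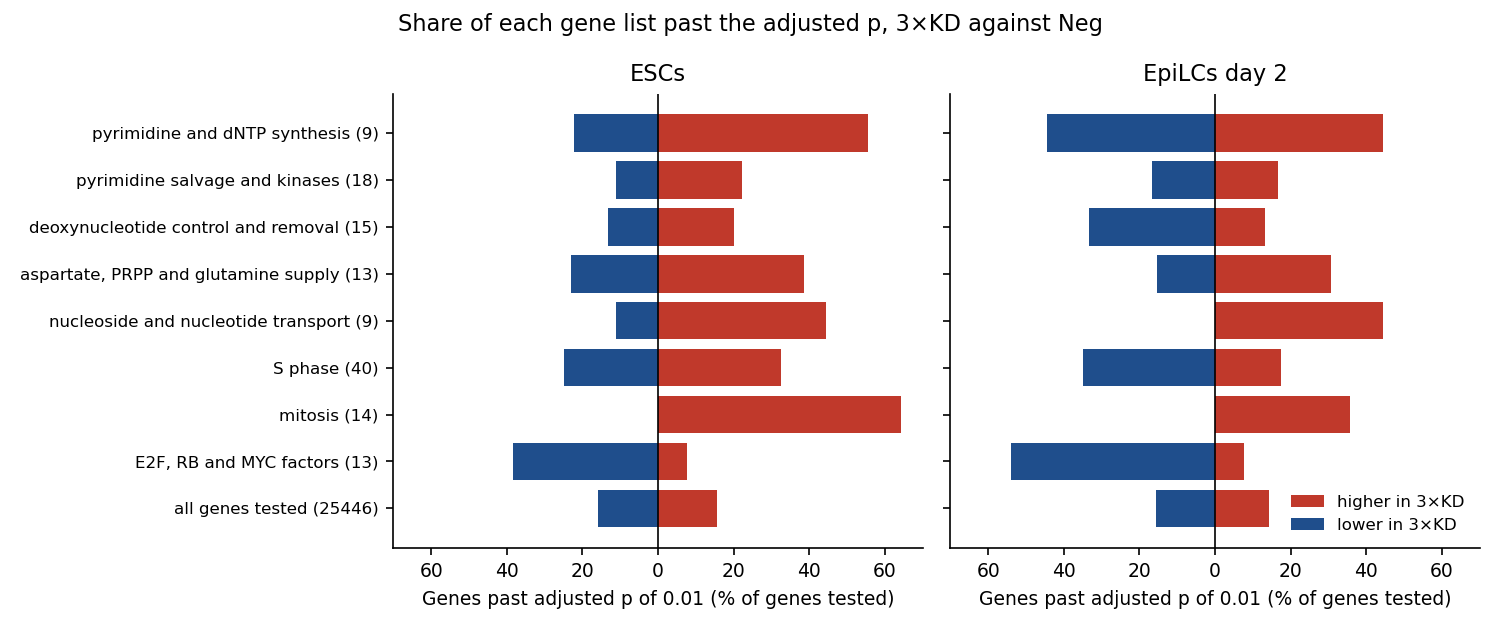
Share of the tested genes of each list (number in brackets) that passed an adjusted p of 0.01 between 3×KD and Neg, as a percentage to the right of 0 for higher and to the left for lower genes, in ESCs and EpiLCs day 2. Of the 9 synthesis genes, 5 were higher and 2 lower in ESCs and 4 were higher and 4 lower in EpiLCs.

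The profiles of the members over the 12 libraries were spread to different degrees. The SD of log2 CPM ran from 0.088 for *Rrm1* and 0.12 for *Dut* to 0.39 for *Rrm2* and 0.63 for *Tk1*, beside a median of 0.36 for genes averaging 1 CPM or more. Likeness was measured as the root mean square difference of log2 CPM after centering each gene, over 12 libraries and 15032 genes, which puts flat genes nearer to many others. The members most alike were *Ctps1* and *Rrm1* (0.12) and *Umps* and *Ctps1* (0.13), and the least alike were *Umps* and *Tk1* (0.79). Nearest to *Cad* were *Txnrd1* (0.061), *Fbxw4* (0.064) and *Lss* (0.068), and nearest to *Tk1* were *Rhbdf1* (0.11), *Gstm1* (0.11) and *Igf2bp2* (0.11). For *Tyms* they were *Fen1* (0.048), *Taf1* (0.059) and *Mrps23* (0.060), and for *Dut* *Dmac1* (0.033), *Hdac1* (0.052) and *Pcna* (0.052). *Rrm1* was nearest to *Mrfap1* (0.037), *Usp14* (0.038) and *Psmd1* (0.043), and *Rrm2* to *Selenow* (0.061), *Vasp* (0.065) and *Pkd2l1* (0.071). *Ctps1* lay nearest to *Eif3b* (0.032), *Cct6a* (0.033) and *Bop1* (0.036), *Umps* to *Casp2* (0.051), *Tex10* (0.057) and *Hmgn2* (0.058), and *Dhodh* to *Pde4dip* (0.061), *Rrbp1* (0.071) and *Ezh1* (0.072).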

How the data were processed

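RNA was measured in 12 libraries (ribosomal RNA depletion and directional single-end sequencing in the study's methods, whereas the labels give polyadenylated RNA). The authors trimmed reads with Trim Galore 0.6.7, aligned them with STAR 2.7.9a to GRCm39 and ran Salmon 1.10.1, and deposited estimated counts (not normalized) and TPM (scaled by the authors' quantifier for transcript length and library) per transcript. Here estimated counts were added up by gene, rounded, TMM-normalized and fitted in 4 groups with edgeR 4.0.16 (quasi-likelihood) in R 4.3.3 on 25446 genes with at least 10 counts, and p-values were adjusted over these genes. Calls need an adjusted p below 0.01 and a log2 fold change beyond ±0.58, as in the study's methods. TPM served for levels per length and transcript shares. The fit was tested on simulated data. Coordinates are from GENCODE vM39 (GRCm39), which matched 99.02% of genes, and promoter windows from RefSeq (GRCm38.p6). Alternatives were other scalings (library size alone, upper-quartile or RLE factors), DESeq2 1.42.0, no filter or filterByExpr, length offsets, a replicate block, robust estimation, only the groups compared, an adjusted p under 0.05 and each library left out.

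Members and lists were chosen with earlier results of these data known. Named genes are all 9 members, at most the 3 largest changes past the adjusted p in each direction of each list, the 3 nearest profiles of each member (among genes averaging 1 CPM or more), and the targeted genes. *Syngr2*, *Afmid* and *Gm20708* were added after their values were seen, because they overlap *Tk1*. The single markers of other cell types were also chosen after their values were seen. A list gene that the rule would name is not reported here.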

Additional observations from a re-analysis of the deposited data

Results flagged for a closer look

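The effect of 3×KD differed between EpiLCs and ESCs for 3 members by the test of the interaction in edgeR's quasi-likelihood fit. That test was passed by 10% of all genes tested and by 16.8% of those averaging 1 CPM or more. For *Cad* the difference in log2 fold change (EpiLCs minus ESCs) was -0.42 ± 0.05 (SE, adjusted p = 1.84e-05), with a rise in both states that was smaller in EpiLCs. For *Rrm2* it was -0.31 ± 0.05 (adjusted p = 0.000347), again with a rise in both states. For *Rrm1* it was -0.28 ± 0.051 (adjusted p = 0.00114), with a small rise in ESCs and a small fall in EpiLCs, neither of them firm. The difference for *Rrm1* did not pass with library size alone (-0.20) or with length offsets (-0.42). That for *Rrm2* did not pass with library size alone (-0.24).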

How the results depend on the processing

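Over 45 member results, 33 kept their side of the adjusted p of 0.01 under every alternative and 12 did not. Direction held in all 45 apart from the *Dhodh* difference between states, which did not pass and had the other sign in 5 of 21 alternatives (from -0.041 to 0.098). An adjusted p under 0.05 with no fold limit counted 7 members in ESCs and 8 in EpiLCs for 3×KD against Neg. For EpiLCs against ESCs it counted 9 in Neg and 8 in 3×KD (5 at an adjusted p under 0.01). For the difference between states it counted 6. The share of all genes at this looser limit was not taken, so these counts have no background of their own. At the stricter 0.01, the share of genes averaging 1 CPM or more was 51.3% in ESCs and 49.1% in EpiLCs for 3×KD against Neg. It was 55.9% in Neg and 53.4% in 3×KD for EpiLCs against ESCs, and 16.8% for the difference. Upper-quartile factors left 1 member called in 3×KD EpiLCs against ESCs, since *Tk1* came to -0.57 (4804 of all 25446 genes were called). No filter gave 5 for the difference, adding *Umps* and *Tk1*, beside 3329 of the 39915 genes then tested. With each library left out in turn, *Cad* ranged from 0.60 to 0.64 and *Tk1* from 0.62 to 0.77 in 3×KD against Neg ESCs, *Tk1* from 0.98 to 1.07 in EpiLCs, and *Tyms* from -0.54 to -0.43 in ESCs. For the difference between states, *Tk1* passed without replicate 1 of Neg ESCs (0.40), and *Ctps1* without replicate 2 of Neg EpiLCs (-0.20) or replicate 3 of 3×KD EpiLCs (-0.21). *Umps* passed with DESeq2, library size alone, filterByExpr, no filter or robust estimation. Offsets for transcript length moved the difference of *Tk1* to 0.084 and *Cad* in ESCs to 0.82. The causes were not tested. Libraries of the same replicate number did not deviate together (correlations between -0.135 and 0.102), so the numbers were not read as pairs. With the replicate block *Cad* came to 0.61 and *Tk1* to 0.70 in ESCs, and no call on a member changed. For 3×KD against Neg, 2 and 1 members were called in ESCs and EpiLCs, beside 3792 and 3277 of all 25446 genes. The median of all genes stayed within 0.1 of 0 under every scaling.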
